A study of Homo sapiens with 6 samples.

Results

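The USP genes encode ubiquitin-specific proteases, the largest family of human deubiquitinases, and were examined in clonal MiaPaCa2 cells, which derive from a human pancreatic ductal adenocarcinoma. A gene was taken as a member where its symbol in the deposited count table was USP followed by a number, with or without a final X. This gave 50 of the 26334 symbols in the table. The pattern of letters uses no measured value, but the family itself was selected on earlier values of the ZEB1-KO against WT comparison, with the higher level of USP43 known. The differences between the groups are therefore given as a description of the members and carry no weight for the family as a whole.

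The groups differed in the plasmid they had received. One held 3 clones sorted as GFP-positive cells after electroporation of a plasmid that carried Cas9, GFP and a guide RNA against ZEB1 (ZEB1-KO), a zinc-finger repressor of epithelial genes. The other held 3 clones sorted in the same way after the Cas9-GFP plasmid without that guide (WT). All 6 clones came from the same parental line, so that each carries electroporation, sorting and growth from a clone. Each clone gave 1 library from 2000 cells by SMART-Seq2, a protocol that primes on poly-A tails, amplifies the cDNA and keeps no strand. No label gives a date or batch of culture. Library totals ran from 18909305 to 36798770 counts in ZEB1-KO and from 26242238 to 42876693 counts in WT clones. A floor of 3 counts corresponded to 0.0687 to 0.150 CPM (counts scaled to each library's total after TMM factors), and such floors and intervals cover counting error only.

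ZEB1 itself had 67, 140 and 369 counts in ZEB1-KO replicates 1, 2 and 3. In WT replicates 1, 2 and 3 it had 1486, 1011 and 830 counts. Scaled, this was 3.34, 3.46 and 11.5 CPM in ZEB1-KO and 34.0, 31.2 and 33.6 CPM in WT clones. The ZEB1 transcript was thus lower in each ZEB1-KO library but was still counted, most of all in ZEB1-KO replicate 3. With quasi-likelihood in edgeR, ZEB1 stood at -2.43 (log2 fold change, SE 0.49) and missed the threshold of 0.05 (adjusted p = 0.0930). A gene without a call in that test can therefore still be lower in each ZEB1-KO clone. Of the ductal and epithelial markers, KRT8 averaged 1940 ± 268 CPM in ZEB1-KO and 817 ± 84.4 CPM in WT clones (SD, n = 3 each). KRT18 averaged 2588 ± 281 CPM in ZEB1-KO and 1810 ± 411 CPM in WT clones, KRT19 averaged 267 ± 107 CPM in ZEB1-KO and 147 ± 86.0 CPM in WT clones, and SOX9 averaged 38.1 ± 17.6 CPM in ZEB1-KO and 80.0 ± 39.3 CPM in WT clones, and none of these passed an adjusted p of 0.05 in edgeR's quasi-likelihood test. CDH1, EPCAM and KRT7 averaged at most 0.232 CPM in either group. The 16 markers of acinar, islet, blood, endothelial and fibroblast cells averaged at most 1.22 CPM in ZEB1-KO and at most 0.382 CPM in WT clones. A level of RNA in a clone cannot tell apart fewer expressing cells from less RNA per cell.

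Ubiquitin-specific proteases are cysteine proteases that cleave ubiquitin from proteins or from other ubiquitin molecules, and so oppose the ubiquitin ligases that mark proteins for the proteasome or for traffic and signalling. Members differ in their substrates. Some act on histones, some on DNA repair proteins, some on receptors in endosomes, and some on ubiquitin chains at the proteasome. Several are studied in carcinomas because they stabilise cell cycle or signalling proteins.

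The sequences before the transcription start are shown for the 4 members with the largest positive fold changes after USP43, since these stood apart from the rest of the family. They are RefSeq sequences of build GRCh38.p14, 250 bases that end just before the annotated start, written 5′ to 3′ in the direction of transcription. Capitals mark CACCTG or its reverse complement CAGGTG, the E-box that ZEB1 is known to bind.
USP53, chr4:119212463-119212712, plus strand: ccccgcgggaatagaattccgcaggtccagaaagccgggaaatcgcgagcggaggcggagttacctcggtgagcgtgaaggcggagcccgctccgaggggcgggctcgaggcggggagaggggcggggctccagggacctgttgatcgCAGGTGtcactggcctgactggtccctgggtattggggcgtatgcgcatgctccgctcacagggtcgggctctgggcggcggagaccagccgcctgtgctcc
USP2, chr11:119364209-119364458, minus strand: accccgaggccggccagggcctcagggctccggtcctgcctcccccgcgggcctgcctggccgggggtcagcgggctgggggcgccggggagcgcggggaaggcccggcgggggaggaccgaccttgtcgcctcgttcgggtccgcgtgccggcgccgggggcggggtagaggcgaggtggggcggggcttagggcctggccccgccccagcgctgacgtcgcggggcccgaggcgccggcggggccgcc
USP5, chr12:6851900-6852149, plus strand: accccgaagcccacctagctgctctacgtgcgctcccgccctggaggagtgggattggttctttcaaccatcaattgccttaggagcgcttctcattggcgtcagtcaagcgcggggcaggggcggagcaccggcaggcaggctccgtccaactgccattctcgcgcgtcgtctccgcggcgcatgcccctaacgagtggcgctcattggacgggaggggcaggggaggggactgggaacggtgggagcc
USP11, chrX:47232759-47233008, plus strand: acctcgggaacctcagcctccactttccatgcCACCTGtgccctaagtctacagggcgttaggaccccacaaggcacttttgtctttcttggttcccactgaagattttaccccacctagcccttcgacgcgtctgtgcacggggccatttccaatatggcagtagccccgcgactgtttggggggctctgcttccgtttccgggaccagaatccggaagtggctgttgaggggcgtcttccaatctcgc
The motif occurred once before USP53, 102 bases from its first base to the start, and once before USP11, at 218 bases, and not in these windows of USP2 and USP5. RefSeq entries were matched by symbol for 39 members with 53 starts, and 9 of these 53 windows (17.0%) held the motif on either strand, against 6143 of 35116 windows of the same length over all listed starts (17.5%). Such matches are a description of the letters only. USP43 had no matched entry, so that the motif could not be sought before its start.

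Most members were transcribed in these cells. After the filter on low counts 45 members were tested, and the 5 under it were USP26, USP29, USP35, USP44 and USP50. USP26 and USP50 had 0 counts in all 6 libraries, USP29 had 0 counts in each ZEB1-KO library and 3, 1 and 0 counts in the WT libraries, and USP35 had 1, 6 and 1 counts in ZEB1-KO and 7, 3 and 4 counts in WT libraries. USP44, a histone H2B protease with a role in mitosis, had 0, 6 and 14 counts in ZEB1-KO and 12, 12 and 3 counts in WT libraries. No difference could be read for these 5 at this depth.

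The deposited TPM table, which is scaled per gene length and so allows genes to be compared, listed 43 members with a median level of 5.33 TPM over all libraries, against 8.18 TPM over its 11013 genes. A group of 6 members held 62.6% of the family's summed TPM in ZEB1-KO and 63.6% in WT clones. In order of their mean over all libraries these were USP39, a component of the spliceosome without protease activity, USP10, which acts on p53, USP14, which is bound to the proteasome, USP1, which acts on the repair proteins FANCD2 and PCNA, USP16, a histone H2A protease, and USP22, the histone H2B protease of the SAGA complex. Their levels were 99.0 ± 15.9 TPM in ZEB1-KO and 53.7 ± 17.7 TPM in WT clones for USP39, and 92.7 ± 11.7 TPM in ZEB1-KO and 56.8 ± 12.0 TPM in WT clones for USP10 (SD, n = 3 each). USP14 had 80.3 ± 7.57 TPM in ZEB1-KO and 55.7 ± 5.34 TPM in WT clones, and USP1 had 57.4 ± 16.3 TPM in ZEB1-KO and 70.8 ± 12.7 TPM in WT clones. USP16 was at 48.5 ± 7.88 TPM in ZEB1-KO and 71.0 ± 25.9 TPM in WT clones, and USP22 at 58.1 ± 20.0 TPM in ZEB1-KO and 43.1 ± 6.01 TPM in WT clones. The ranges of neighbours in this order overlapped over the 6 libraries.

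USP11 and the endosomal protease USP8 came next, with means over all libraries of 22.3 and 21.9 TPM. The highest TPM outside the leading 6 was 53.4, for USP11 in 1 ZEB1-KO library, above the lowest among them (35.4 TPM). Of the 43 listed members, 26 had a mean between 1 and 10 TPM and 4 a mean under 1 TPM, namely USP53, USP20, USP27X and USP6. USP6 is close in sequence to USP32, so that its count is uncertain. TPM values stood higher in ZEB1-KO clones for the typical gene, by a median of 0.23 on the log2 scale for genes with a mean of at least 1 TPM, so that the differences below are taken from the scaled counts.

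**Figure D1:**
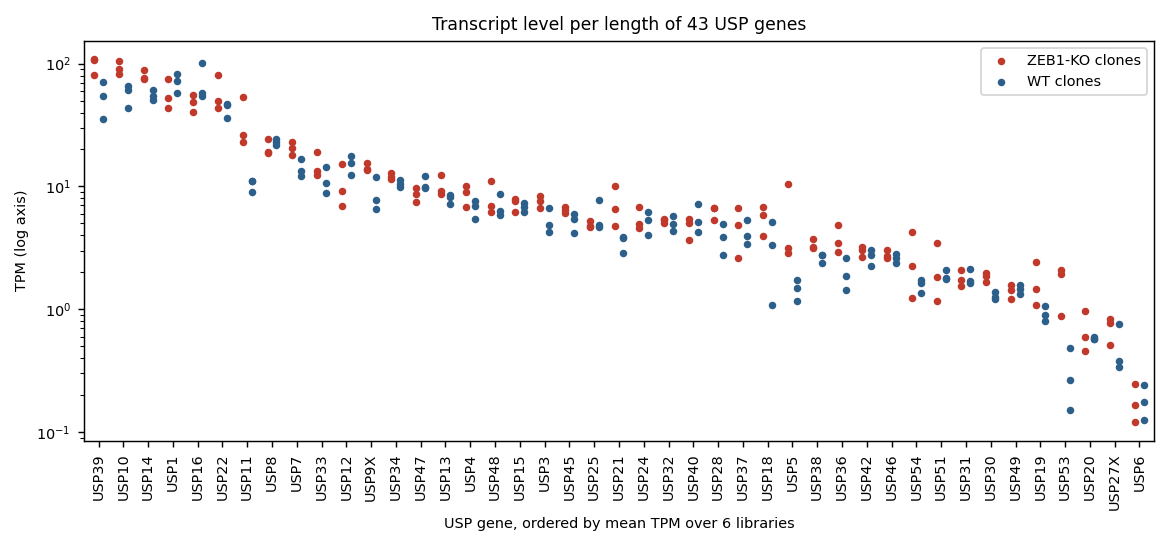
Deposited TPM (vertical, log axis) of the 43 listed USP genes in each of 3 ZEB1-KO and 3 WT libraries (1 point per library), ordered by mean TPM. The leading 6, from USP39 to USP22, lie between 35.4 TPM and the top of the plot, and USP6 is lowest.

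The summed CPM of the 50 members was 1893 ± 102 in ZEB1-KO and 1856 ± 47.9 in WT clones (SD, n = 3 each), a difference within the spread between clones. Of the 45 tested members, 25 had a positive and 20 a negative log2 fold change, ZEB1-KO over WT, with a median of 0.07, against a median of -0.01 over all 13659 genes tested. Fold changes within 0.5 of 0 on the log2 scale were found for 31 members (68.9%), against 61.7% of all genes tested. At least a 2-fold higher level was fitted for 5 members, USP43, USP53, USP2, USP5 and USP11 (background 7.12% of all genes), and at least a 2-fold lower level for 0 (background 4.9%).

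By edgeR's quasi-likelihood test with Benjamini-Hochberg adjustment over all genes, 1 member, USP43, passed an adjusted p of 0.05 with a higher level in ZEB1-KO clones, where 16 of all genes tested did so (0.117%). The higher level of USP43 was known when the family was selected, so that its call carries no weight. Of lower levels 0 passed among members, beside 8 of all genes (0.0586%), and 0.176% of all genes passed in either direction. At an unadjusted p below 0.05, 7 members were higher and 4 lower, beside 9.64% and 8.04% of all genes, in the same test. DESeq2 called 4 of 45 members higher and 0 lower, beside 4.34% and 2.78% of the 13135 genes to which it gave an adjusted p. The levels of 10 members were higher in each ZEB1-KO clone than in each WT clone and those of 6 were lower in each, beside 11.9% and 11.7% of all genes (23.6% either way). The authors' deposited table listed 43 members, of which 2 passed an adjusted p of 0.05, both higher (USP11 and USP53), beside 4.75% of the genes in the authors' deposited table. USP43 was not among the genes of the authors' table and so has no result there.

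**Figure D2:**
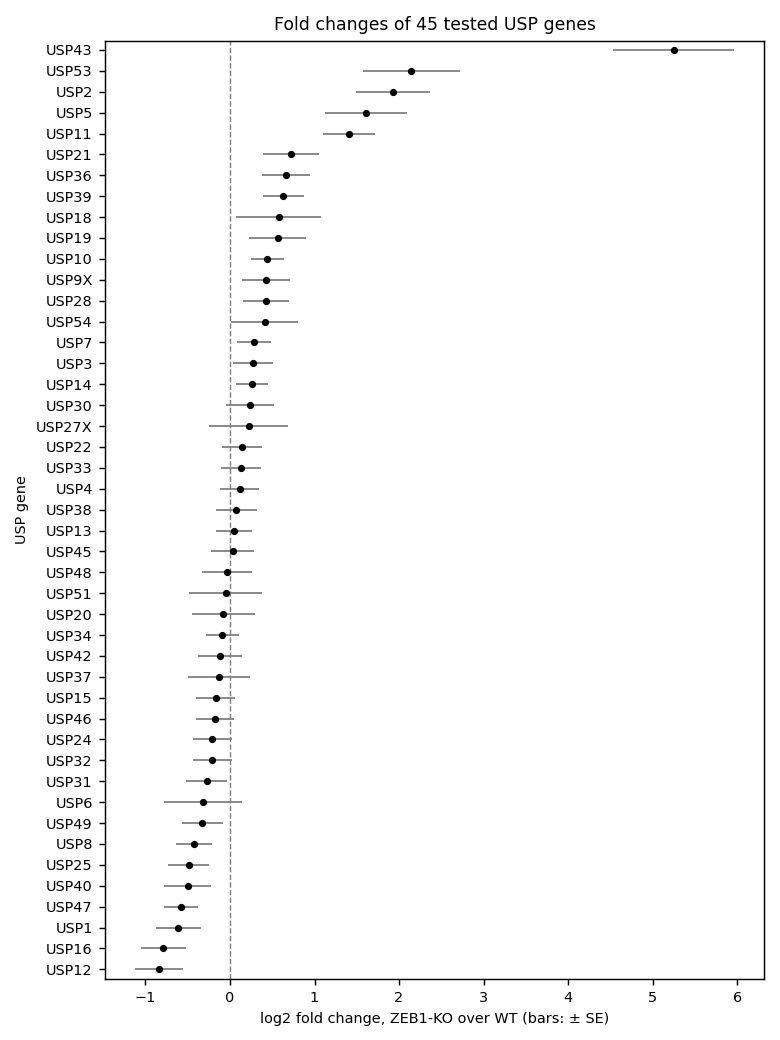
Log2 fold change, ZEB1-KO over WT (horizontal), of the 45 tested USP genes (vertical), with bars of ± SE from edgeR's quasi-likelihood fit. USP43 stands at 5.25, USP53, USP2, USP5 and USP11 between 2.15 and 1.40, and the other 40 between 0.72 and -0.84.

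USP43, a little-studied protease whose closest relative is USP31, was the 1 member past the threshold of edgeR's quasi-likelihood test. It had 38, 38 and 32 counts in ZEB1-KO replicates 1, 2 and 3, against 2, 0 and 1 counts in WT replicates 1, 2 and 3. Each ZEB1-KO library thus stood well above each WT library, and the WT libraries were at or under the floor of 3 counts. USP43 passed the filter on low counts, with its minimum count of 10, through the ZEB1-KO libraries alone. Summed over libraries and scaled, the ratio of ZEB1-KO to WT was 39.2, with a binomial 95% interval of 13.0 to 193 for counting error. That interval takes reads as independent, although the cDNA was amplified, and leaves out the spread between clones. The level of USP43 remained low, at 1.28 ± 0.537 CPM in ZEB1-KO and 0.0288 ± 0.0251 CPM in WT clones (SD, n = 3 each). The fit put this at 5.25 ± 0.72 (log2 fold change ± SE), adjusted p = 0.0463 from edgeR. That call did not hold without any 1 of the 6 libraries (adjusted p of 0.0741 to 0.190, log2 fold changes of 4.74 to 5.86) or with a replicate block (adjusted p of 0.0647), while DESeq2 gave an adjusted p of 5.6e-05. USP31 had 10.3, 9.98 and 13.6 CPM in ZEB1-KO and 14.6, 13.5 and 12.9 CPM in WT clones, with overlapping groups and a log2 fold change of -0.28. In GENCODE release 29 an unnamed gene on the other strand overlaps exons of USP43, as also for USP2 and USP53, and these partners have no row of their own in the counts.

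USP53, which in mouse is found with scaffold proteins of tight junctions, had 8.48, 3.16 and 7.69 CPM in ZEB1-KO replicates 1, 2 and 3, against 0.641, 2.47 and 1.26 CPM in WT replicates 1, 2 and 3. The groups did not overlap, but the lowest ZEB1-KO clone was close to the highest WT clone. Its log2 fold change of 2.15 (SE 0.58) came with an adjusted p of 0.125 from edgeR, against 0.00377 from DESeq2. In the authors' deposited table it was 2.14 with an adjusted p of 0.0184. Its relative USP54 was at 8.53, 14.1 and 4.58 CPM in ZEB1-KO and 6.83, 6.45 and 7.25 CPM in WT clones, where the ZEB1-KO clones lay on both sides of the WT clones.

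USP2, which acts on cyclin D1 and MDM2, had 20, 36 and 18 counts in ZEB1-KO clones and 8, 8 and 5 counts in WT clones. This was 0.998, 0.889 and 0.560 CPM in ZEB1-KO and 0.183, 0.247 and 0.203 CPM in WT clones, with no overlap. USP2 also passed the filter on low counts through the ZEB1-KO libraries alone. The fold change was 1.93 on the log2 scale (SE 0.44, adjusted p = 0.103 from edgeR and 0.0722 from DESeq2), and USP2 was not among the genes of the authors' table.

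USP11, a nuclear protease linked to DNA repair and a relative of USP4 and USP15, had 46.5, 95.3 and 51.7 CPM in ZEB1-KO replicates 1, 2 and 3, against 23.5, 28.3 and 21.2 CPM in WT replicates 1, 2 and 3. All ZEB1-KO clones lay above all WT clones, and ZEB1-KO replicate 2 was the highest. Its log2 fold change of 1.40 (SE 0.31, adjusted p = 0.0981 from edgeR and 0.00210 from DESeq2) was 1.01 without that library. It was 1.40 with an adjusted p of 0.00707 in the authors' deposited table. USP4 and USP15 had overlapping groups, with log2 fold changes of 0.11 and -0.17.

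**Figure D3:**
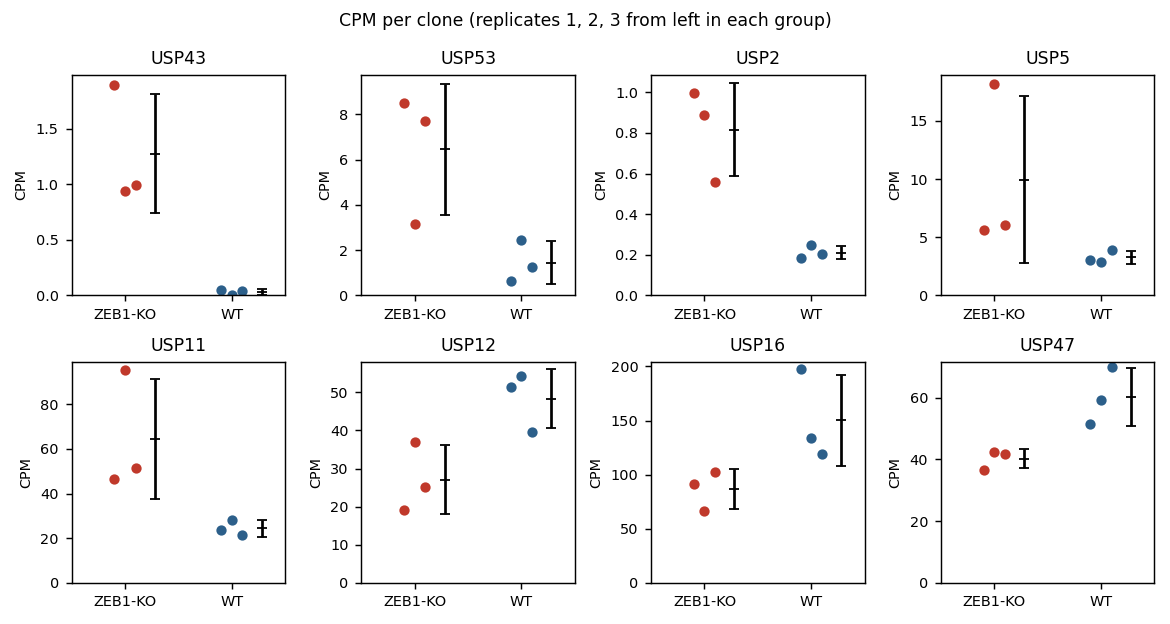
CPM (vertical, linear axis from 0) of 8 USP genes in each clone, with ZEB1-KO left of WT in each panel and the mean ± SD beside the points (n = 3 each). USP43, USP53, USP2, USP5 and USP11 show ZEB1-KO points above WT points, and USP12, USP16 and USP47 show them below.

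Proteases of free ubiquitin chains and of the proteasome, USP5, USP13 and USP14, had positive log2 fold changes in 3 of 3 members. None passed an adjusted p of 0.05 in edgeR's quasi-likelihood test and 1 was higher at an unadjusted p below 0.05 (9.64% of all genes), while DESeq2 called USP5. USP5, which takes apart unanchored ubiquitin chains, had 5.64, 18.2 and 6.04 CPM in ZEB1-KO replicates 1, 2 and 3, against 3.05, 2.87 and 3.93 CPM in WT replicates 1, 2 and 3. A single clone, ZEB1-KO replicate 2, was far above the others. The log2 fold change of 1.61 (SE 0.49, adjusted p = 0.151 from edgeR, 0.0181 from DESeq2) was 0.83 without that library. USP13, its relative, and USP14 had log2 fold changes of 0.05 and 0.26, the second of which was 0.16 without ZEB1-KO replicate 3.

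The proteases that need the cofactor WDR48, USP1, USP12 and USP46, all had negative log2 fold changes, with 0 past an adjusted p of 0.05 in edgeR's quasi-likelihood test or in DESeq2 and 2 lower at an unadjusted p below 0.05 in edgeR's test (8.04% of all genes). USP12 had 19.2, 36.9 and 25.2 CPM in ZEB1-KO replicates 1, 2 and 3, against 51.3, 54.2 and 39.6 CPM in WT replicates 1, 2 and 3, so that the groups did not overlap. Its log2 fold change of -0.84 (SE 0.28, adjusted p = 0.183 from edgeR) was the most negative of the family. USP1 had 114, 172 and 134 CPM in ZEB1-KO and 157, 269 and 215 CPM in WT clones, with overlap and a log2 fold change of -0.61 (SE 0.26, adjusted p = 0.275), which was -0.40 without WT replicate 2. USP46 had a log2 fold change of -0.17, and WDR48 itself one of 0.08.

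Histone proteases were split. Of 9 tested members, 5 had a positive and 4 a negative log2 fold change, none past an adjusted p of 0.05 in edgeR's quasi-likelihood test or in DESeq2. At an unadjusted p below 0.05 in edgeR's test 1 was higher and 1 lower, beside 9.64% and 8.04% of all genes. USP21, which acts on histone H2A, and USP36, a nucleolar protease, were at 9.74 ± 3.09 and 11.4 ± 2.18 CPM in ZEB1-KO clones, against 5.92 ± 1.37 and 7.21 ± 1.56 CPM in WT clones (SD, n = 3 each), with log2 fold changes of 0.72 and 0.66. That of USP21 was 0.46 without ZEB1-KO replicate 2. USP22 had a log2 fold change of 0.14, which ran from -0.10 without ZEB1-KO replicate 2 to 0.28 without ZEB1-KO replicate 1. USP49, a histone H2B protease, had one of -0.33, and its exons overlap those of TOMM6 on the other strand in GENCODE release 29.

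USP16 had 91.8, 66.4 and 103 CPM in ZEB1-KO replicates 1, 2 and 3, against 198, 134 and 119 CPM in WT replicates 1, 2 and 3. The groups did not overlap, and WT replicate 1 was well above the other clones. Its log2 fold change of -0.79 (SE 0.27, adjusted p = 0.184 from edgeR) was -0.53 without WT replicate 1. USP25, a protease of the endoplasmic reticulum quality control pathway, had 15.5, 15.2 and 15.3 CPM in ZEB1-KO and 26.9, 20.0 and 17.7 CPM in WT clones, with a log2 fold change of -0.49 that was -0.28 without WT replicate 1.

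Both genes lie on chromosome 21, whose 133 tested genes had a median log2 fold change of -0.33, the most negative of the chromosomes that carry tested members, and of -0.06 without WT replicate 1. Relative to the mean of the WT clones, the median log2 level of chromosome 21 genes was -0.34, -0.35 and -0.35 in ZEB1-KO replicates 1, 2 and 3, against 0.44, -0.30 and -0.14 in WT replicates 1, 2 and 3. WT replicate 1 thus stood apart for the chromosome as for USP16 and USP25. The part of the chromosome in their fold changes was not tested. Of the other chromosomes that carry tested members, chromosome 13, with USP12, had the lowest median log2 fold change (-0.18). The highest was 0.16, on chromosome X, which carries USP11, USP9X, USP27X and USP51. The part of these chromosomes was not tested either.

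**Figure D4:**
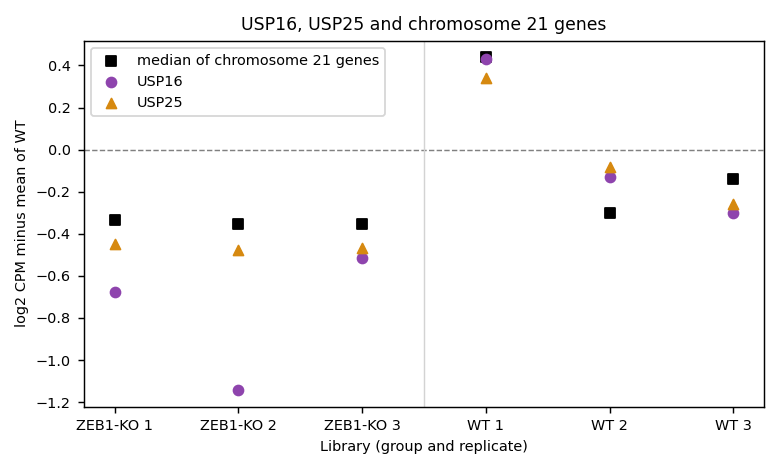
Log2 CPM minus the mean of the WT clones (vertical) for USP16, USP25 and the median chromosome 21 gene in each library. WT replicate 1 is above 0 for all of them, and the 3 ZEB1-KO libraries lie between -0.34 and -1.14.

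Proteases of DNA damage, p53 and the cell cycle had 5 positive and 4 negative log2 fold changes among 9 tested, with 0 past an adjusted p of 0.05 in edgeR's test and 1 each way at an unadjusted p below 0.05 (9.64% of all genes higher and 8.04% lower), while DESeq2 called USP11. USP47, which acts on a base excision repair polymerase, had 36.7, 42.3 and 41.7 CPM in ZEB1-KO and 51.4, 59.3 and 70.0 CPM in WT clones. The groups did not overlap, with a log2 fold change of -0.58 (SE 0.20, adjusted p = 0.196 from edgeR). USP10 had 189.5 ± 13.8 CPM in ZEB1-KO and 139 ± 20.0 CPM in WT clones (SD, n = 3 each), with no overlap and a log2 fold change of 0.44 (adjusted p = 0.291). USP7, which acts on MDM2 and p53, had one of 0.29, and USP28, a relative of USP25, one of 0.42.

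USP39 had 139, 166 and 180.5 CPM in ZEB1-KO and 128, 76.2 and 109 CPM in WT clones, without overlap and with a log2 fold change of 0.63 (SE 0.24, adjusted p = 0.227 from edgeR). Its exons overlap those of C2orf68 and TMEM150A on the other strand in GENCODE release 29, and reads of such pairs cannot be told apart without strand. The same limit holds for 19 of the 50 members, among them USP14, which overlaps THOC1, and USP20, which overlaps C9orf78. The list of endosomal, secretory and mitochondrial members had 4 positive and 5 negative log2 fold changes, with USP2 at the top and USP25 at the bottom. USP2 was placed in this list although it acts on cyclin D1 and MDM2, and it was not counted among the p53 and cell cycle members. USP8, which acts on receptors in endosomes, averaged 69.3 ± 13.0 CPM in ZEB1-KO and 93.1 ± 7.41 CPM in WT clones (SD, n = 3 each), with no overlap and a log2 fold change of -0.43 (adjusted p = 0.329 from edgeR).

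Signalling members were spread around 0, with log2 fold changes between -0.17 and 0.43 for USP4, USP9X, USP15 and USP34. USP9X, a large protease on the X chromosome, had 106, 92.0 and 117 CPM in ZEB1-KO and 62.4, 113 and 58.2 CPM in WT clones, where WT replicate 2 lay among the ZEB1-KO clones. USP18, which removes the ubiquitin-like ISG15 from proteins and is induced by interferon, had 7.28, 4.35 and 8.31 CPM in ZEB1-KO and 6.78, 1.70 and 4.86 CPM in WT clones, with overlap and a log2 fold change of 0.58. USP41 is a near copy of USP18, so that this count is uncertain. Of the less studied members, USP40 had a log2 fold change of -0.50 (adjusted p = 0.382 from edgeR), which was -0.25 without WT replicate 3, and USP38 one of 0.07.

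The median SD of log2 CPM between clones was 0.27 in ZEB1-KO and 0.23 in WT clones over the 45 tested members. Over all genes tested it was 0.37 in ZEB1-KO and 0.32 in WT clones. These sets were not matched for count level, and the part of count level in this difference was not tested. The highest clone exceeded the lowest by more than 2-fold for 8 members (17.8%) in ZEB1-KO and 5 (11.1%) in WT clones, beside 32.0% of all genes tested in ZEB1-KO and 25.9% in WT clones. In ZEB1-KO clones these included USP51, a histone H2A protease (4.99, 2.77 and 9.25 CPM in replicates 1, 2 and 3), USP5 and USP54. Among these 8, ZEB1-KO replicate 1 was the highest of its group for USP43, USP53 and USP6. Replicate 2 was the highest for USP5, USP54 and USP11, and replicate 3 for USP51 and USP37. Over the 45 tested members, ZEB1-KO replicate 2 was the highest of its group for 33.3%, beside 36.9% of all genes tested.

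**Figure D5:**
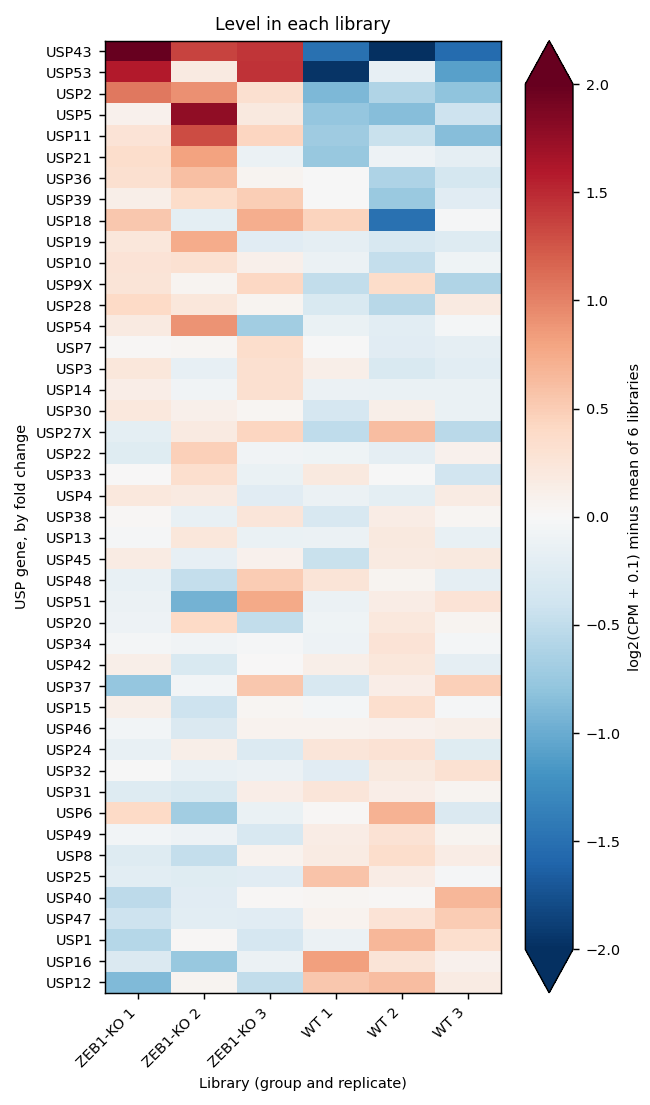
Log2(CPM + 0.1) minus the mean of 6 libraries (colour, limits at 2 either way) for the 45 tested USP genes (rows, by fold change) in each library (columns, ZEB1-KO left of WT). The upper 5 rows are red in most ZEB1-KO columns and blue in most WT columns, and most other rows are pale.

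Other deubiquitinases and related proteases gave 0 calls in edgeR's quasi-likelihood test, in its likelihood ratio test and in DESeq2. They were listed by symbols outside the USP pattern and not by family, and include CYLD, USPL1 and COPS5. Of 35 listed genes with a row, 31 were tested, 12 with a positive and 19 with a negative log2 fold change and a median of -0.13, with 3 higher and 4 lower at an unadjusted p below 0.05 in edgeR's quasi-likelihood test, beside 9.64% and 8.04% of all genes. The extremes were OTUD5, a regulator of innate immune signalling, and YOD1, of the endoplasmic reticulum, with log2 fold changes of 1.24 and 0.80, and OTUD1 and FAM63B, with -1.01 and -0.81. OTUD5 had 16.9, 24.8 and 11.6 CPM in ZEB1-KO and 5.04, 12.6 and 4.98 CPM in WT clones, with overlap. The groups did not overlap for YOD1, OTUD1 or FAM63B. Counts of OTUD1 were few, at 14, 22 and 38 in ZEB1-KO and 63, 43 and 53 in WT clones.

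Cofactors of USP proteins and ubiquitin genes likewise gave 0 calls in those tests among 16 tested, with 12 positive log2 fold changes and a median of 0.30, and with 3 higher and 2 lower at an unadjusted p below 0.05 in edgeR's quasi-likelihood test, beside the same 9.64% and 8.04% of all genes. UBB, a polyubiquitin gene, averaged 2414 ± 276 CPM in ZEB1-KO and 4073 ± 729 CPM in WT clones (SD, n = 3 each), with a log2 fold change of -0.75 and an adjusted p of 0.144 from edgeR. ENY2, which with USP22 forms part of the deubiquitinase module of SAGA, had 183 ± 48.1 CPM in ZEB1-KO and 339.5 ± 71.3 CPM in WT clones (log2 fold change of -0.89, adjusted p = 0.143). DMWD, a cofactor of USP12 and USP46, had a log2 fold change of 1.29 (adjusted p = 0.216 from edgeR). It had 1.60, 3.21 and 1.06 CPM in ZEB1-KO replicates 1, 2 and 3. In WT replicates 1, 2 and 3 it had 0.825, 0.925 and 0.648 CPM. ZEB1-KO replicate 2 was the highest. The groups did not overlap for UBB, ENY2 or DMWD.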

How the data were processed

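RNA of 6 clonal MiaPaCa2 libraries was measured. Files deposited by the authors hold unnormalized counts by symbol, TPM values for a subset of 11013 genes and edgeR results for that subset (log2 fold change, log2 CPM, likelihood ratio score, p-value and adjusted p-value), per the file headers. TopHat2 2.1.0, HTSeq 0.6.1 and edgeR 3.2.2 with builds hg19 and GRCh37 are named in the submitters' processing notes, without settings. Replicates are separate clones, per the series design.

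Counts were tested with edgeR 4.0.16 in R 4.3.3: filterByExpr (minimum count 10, total 15), TMM factors, glmQLFit and glmQLFTest with the group alone, two-sided, adjusted over 13659 genes at 0.05. SEs come from the F statistic. CPM uses TMM-scaled totals, and log2 CPM a prior count of 2. The lowest chi-square per gene between any 2 libraries was 117, so that none was a copy. Only the quasi-likelihood test was tried on simulated data, drawn with the dispersions fitted to these same counts, and no result rests on that trial. An exact permutation test of 3 against 3 clones cannot go below p = 0.1. Chromosomes were taken by symbol from RefSeq (GRCh38.p14), with a match for 97.7% of tested genes. Overlaps on the other strand were read from GENCODE release 29 and may differ from the authors' annotation. Alternatives were DESeq2 1.42.0, limma 3.58.1 on log2 TPM, other scalings and filters, a replicate block and leaving out each library.

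The members and lists were chosen with earlier results of these data known. Genes named are USP43, the called members, the 8 with the largest fold change each way, the 6 with the highest mean TPM and the 2 extremes each way of the other lists. Relatives and other members were picked with their values in view. A gene that this rule names among the cofactors and ubiquitin genes is not reported here.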

Additional observations from a re-analysis of the deposited data

How the results depend on the processing

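The count of USP members past an adjusted p of 0.05, 1 from all libraries, was unchanged with RLE or upper quartile factors, library size alone or no filter. It was 4 with DESeq2 (USP43, USP53, USP11 and USP5) and 4 with the likelihood ratio test (USP43, USP53, USP11 and USP2). It was 0 with a filter of 1 CPM in 3 libraries and 0 in each of the 3 fits to TPM, which do not include USP43, 0 with the replicate block, and 0 without any single library (range 0 to 0). Over all genes the count of 24 became 134 with no filter, 935 with DESeq2, 617 with the likelihood ratio test, and 104, 89 and 93 with TPM plus 1, TPM plus 0.1 and TPM plus 1 unfiltered (85, 76 and 77 of them higher in ZEB1-KO, beside 16 of the 24), and ran from 5 to 25 without single libraries. The median log2 fold change of tested members, 0.07, was 0.23 with library size alone and 0.28, 0.32 and 0.26 in the same 3 fits to TPM, and ran from 0.02 to 0.14 without single libraries. The median of all genes was 0.14 with library size alone and 0.23, 0.27 and 0.20 in those fits, so that members are to be read relative to it. The lists of other deubiquitinases and of cofactors gave 0 calls under all alternatives tried. Of the 19 members named by rule, 18 kept the sign of their fold change under all alternatives in which they were tested. USP22 was at -0.10 without ZEB1-KO replicate 2. With the replicate block USP43 had an adjusted p of 0.0647 and a log2 fold change of 5.37. Same-numbered libraries correlated in their deviations from the group means by 0.02, 0.01 and 0.22, so that the numbers were not taken as pairs. The cause of the differences between tests was not tested. Depth limits USP43, USP2 and the 5 members under the filter, which have few counts.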
